A study of Mus musculus with 54 samples.

Results

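Expression of 10 genes for activation and adhesion receptors was followed in mouse naive CD4+ T cells through 20 h of stimulation. The genes were Cd69, Cd44, Itgal, Itgb2, Itga4, Itgb1, Itgb7, Itgae, Itgav and Icam1, chosen by name from the 55385 genes of the count tables, and all 10 passed the filter of at least 1 read. The libraries came from 2 separate experiments, each with 3 libraries in every group. The CD5/CD6 experiment (36 libraries) held cells of WT, Cd5-/-, Cd6-/- and Cd5-/-Cd6-/- mice, enriched with a magnetic kit for naive CD4+ cells. The LAT experiment (18 libraries) held WT and Lat-/- cells that were both sorted from Latfl-dtr maT-Cre mice, so that its controls also came from floxed mice with a T cell Cre transgene. WT cells there were those that carried human DTR and Lat-/- cells those that lacked it. All mice were on the C57BL/6 background and 8 to 10 weeks old, lymph nodes and spleens were pooled, and each knockout was a single established line. Cells were taken directly after purification (0 h) or after 4 or 20 h on plate-bound anti-CD3 (3 µg/ml) with soluble anti-CD28 (1 µg/ml). The WT groups are called CD5/CD6 controls and LAT controls after their experiments.

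CD69 is a C-type lectin-like protein that appears early on stimulated lymphocytes and pulls the sphingosine 1-phosphate receptor S1PR1 from the surface, which keeps cells in lymphoid tissue. CD44 binds hyaluronan and is high on T cells that have met antigen. Integrins are pairs of an α and a β chain: Itgal and Itgb2 encode LFA-1, whose ligand ICAM-1 is encoded by Icam1. Itga4 encodes the α4 chain, which pairs with β1 (Itgb1) as VLA-4 or with β7 (Itgb7) as the gut-homing integrin α4β7. Itgae encodes αE (CD103), the other partner of β7, and Itgav encodes αv, which pairs with β1 and further β chains. LAT is the adaptor that couples the triggered TCR to calcium and Ras signaling, and CD5 and CD6 are related surface receptors of T cells.

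The 10 genes lie apart from each other on GRCm38, and counts cover all their annotated exons. The activation receptors are Cd69 (ENSMUSG00000030156) at chr6:129267325-129275436 on the minus strand and Cd44 (ENSMUSG00000005087) at chr2:102811141-102901665 on the minus strand. The LFA-1 chains are Itgal (ENSMUSG00000030830) at chr7:127296260-127335138 on the plus strand and Itgb2 (ENSMUSG00000000290) at chr10:77530252-77565708 on the plus strand, and their ligand is Icam1 (ENSMUSG00000037405) at chr9:21015985-21028817 on the plus strand. The α4 chain is Itga4 (ENSMUSG00000027009) at chr2:79255426-79333123 on the plus strand, and its partners are Itgb1 (ENSMUSG00000025809) at chr8:128685654-128733200 on the plus strand and Itgb7 (ENSMUSG00000001281) at chr15:102215995-102231944 on the minus strand. The αE and αv chains are Itgae (ENSMUSG00000005947) at chr11:73090583-73147446 on the plus strand and Itgav (ENSMUSG00000027087) at chr2:83724397-83806916 on the plus strand.

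The start regions of 4 of these genes are shown because their mRNAs carry the contrasts described here: Itga4 and Itgb7 went down together in WT cells, Itgb1 went up over the same hours, and Icam1 rose at 4 h in Lat-/- cells and not in the WT cells beside them. Each sequence is from RefSeq (GRCm38.p6), runs 5′ to 3′ on the strand of the gene, and covers 250 bases before and 50 bases after the annotated start. Capitals mark matches on either strand to 7 short motifs, namely GGAANTTCC (NF-kB), TGANTCA (AP-1), TGACGTCA (CRE), GGGCGG (SP1), GCGNGGGCG (EGR1), CCGGAAG (ETS) and TGTGGT (RUNX).
Itga4, chr2:79255176-79255475, plus strand: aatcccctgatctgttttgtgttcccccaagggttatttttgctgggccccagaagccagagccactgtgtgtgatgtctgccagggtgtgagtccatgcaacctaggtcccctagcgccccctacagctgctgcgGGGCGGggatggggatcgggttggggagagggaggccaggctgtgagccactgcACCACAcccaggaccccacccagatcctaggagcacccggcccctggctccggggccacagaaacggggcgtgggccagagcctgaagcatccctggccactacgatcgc
Itgb7, chr15:102231886-102232185, minus strand: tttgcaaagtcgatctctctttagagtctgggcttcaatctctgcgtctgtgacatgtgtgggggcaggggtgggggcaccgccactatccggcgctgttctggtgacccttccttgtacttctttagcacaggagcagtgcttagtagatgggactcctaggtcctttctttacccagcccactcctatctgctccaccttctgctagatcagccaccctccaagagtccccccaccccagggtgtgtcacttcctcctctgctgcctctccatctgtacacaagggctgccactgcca
Itgb1, chr8:128685404-128685703, plus strand: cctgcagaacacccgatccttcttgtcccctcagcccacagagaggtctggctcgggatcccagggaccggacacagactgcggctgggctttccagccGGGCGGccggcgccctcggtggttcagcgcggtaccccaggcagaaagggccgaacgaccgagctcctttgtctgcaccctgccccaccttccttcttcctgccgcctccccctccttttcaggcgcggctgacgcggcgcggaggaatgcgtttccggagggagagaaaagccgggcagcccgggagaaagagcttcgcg
Icam1, chr9:21015690-21015989, plus strand: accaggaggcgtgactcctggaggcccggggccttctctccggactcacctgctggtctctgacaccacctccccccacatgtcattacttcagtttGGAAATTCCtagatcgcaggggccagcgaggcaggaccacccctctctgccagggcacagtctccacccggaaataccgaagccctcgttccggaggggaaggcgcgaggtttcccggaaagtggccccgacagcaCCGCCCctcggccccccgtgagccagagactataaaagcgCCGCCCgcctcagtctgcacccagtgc

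The RefSeq table of start regions held 6 of the 10 members, those above with Cd44 and Itgav. Cd69, Itgal, Itgb2 and Itgae are named only. In the Icam1 region GGAANTTCC matched once, with its first base 153 bases before the start, and this motif is found in 0.928% of the 32851 start regions of that length. GGGCGG matched in the regions of Itga4, Itgav, Cd44, Itgb1 and Icam1 and is found in 35.7% of all regions, and TGTGGT matched in that of Itga4 and is found in 16.8%. None of the 7 motifs matched in the Itgb7 region. AP-1, CRE, EGR1 and ETS letters, which are found in 7.81%, 1.79%, 5.55% and 8.86% of all regions, matched in none of the 6. Matches are descriptions of the letters only.

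Library totals ran from 20554354 to 45222554 counts in the CD5/CD6 experiment and from 17784644 to 28501095 in the LAT experiment, and the rarest member, Itgae, still had 11 counts in its lowest libraries. Lat was at 5.69 to 19.1 CPM (counts scaled by the TMM-adjusted library total) in all 9 Lat-/- libraries against 92.2 to 351 in WT. Cd5 and Cd6 were both under 1 CPM in all 9 Cd5-/-Cd6-/- libraries. The 0 h libraries numbered 2 went against their labels: Cd5 was at 720 CPM in the library labelled Cd5-/- (129 and 105 CPM in the other two) and at 172 CPM in the one labelled Cd6-/- (724 and 719 CPM). Cd6 showed the opposite, with 329 CPM (1298 and 1084 CPM in the others) and 1203 CPM (350 and 251 CPM). All libraries were kept under their labels, and fits without these 2 libraries are given where stated. T cell markers summed to 6361 to 8603 CPM at 0 h in the CD5/CD6 experiment, where markers of red cells and platelets summed to 211 to 3623 CPM and Lyz2, a myeloid marker, reached 19 to 196 CPM. In the sorted LAT libraries the red cell and platelet markers did not pass 2.76 CPM, and Lyz2 and Cd8a did not pass 0.79 and 2.03 CPM.

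Among WT cells at 0 h, the members spanned a wide range of levels. On the scale of CPM per kb of exon, Itgb7 was highest in the CD5/CD6 experiment at 365 ± 33.3 (SD, n = 3), followed by Itgb2 at 254 ± 13.2 and Itgal at 99.9 ± 2.06. Cd69 (49.7 ± 30.0), Itga4 (27.7 ± 5.96) and Itgb1 (23.0 ± 1.64) lay next to each other within their spreads, as did Cd44 (7.94 ± 1.70) and Icam1 (6.19 ± 1.32). Itgav (3.26 ± 0.0568) and Itgae (1.14 ± 0.419) were lowest. In LAT controls Itgb7, Itgb2 and Itgal were again highest in this order, at 465 ± 68.5, 272 ± 7.85 and 93.3 ± 20.4 CPM per kb. Cd69 (22.5 ± 4.26), Itgb1 (18.7 ± 1.83) and Itga4 (18.7 ± 7.77) again lay next to each other within their spreads. Values below are CPM unless stated, log2 fold changes carry their standard error (SE), and adjusted p-values come from edgeR's quasi-likelihood test, adjusted over all genes tested (32290 in the CD5/CD6 and 27780 in the LAT experiment) by the method of Benjamini and Hochberg. A gene was called when its fold change passed 2 and its adjusted p was under 0.05. The authors describe 3 independent samples for each condition they show (0 and 20 h). Neither they nor the labels say that the 3 libraries of a group came from separate mice. The p-values therefore measure a spread between libraries that edgeR pools over genes, and how much of it lies between mice is not known. The median weight of the pooled spread (prior degrees of freedom) was 50.87 in the CD5/CD6 experiment. In the LAT experiment this median was infinite. There the SE and p-value of such a gene do not follow the scatter of its own libraries.

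In WT cells of both experiments Cd69, Itgav and Itgb1 were called higher, and Itga4 and Itgb7 lower, after 4 h of stimulation. In the CD5/CD6 experiment 5 of 10 members were called at 4 h against 0 h, where 19.3% of all genes tested and 38.9% of the genes whose mean reached 50 counts were called. At 20 h 6 of 10 were called, against 29.6% and 50.1%. In the LAT experiment the counts for WT cells were 5 at 4 h (17.3% and 33.4%) and 6 at 20 h (23.5% and 40.4%). These counts lay within 1 to 2 genes of 10 of the share of well-counted genes and are not read as a result about the members, and what follows concerns which members moved and how far. From 4 to 20 h 5 of 10 were called in each experiment (21% of all genes in CD5/CD6 controls, 17.2% in LAT controls). By adjusted p alone, with no fold threshold, 9 members passed at 4 h against 0 h and 9 at 20 h against 4 h in CD5/CD6 controls (28.5% and 30.5% of all genes), and 8 at 4 h in LAT controls (29%). The median log2 fold change of the members was 0.74 at 4 h and 0.04 at 20 h in the CD5/CD6 experiment and -0.085 and -0.051 in the LAT experiment, and that of all genes tested was 0.

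Cd69 rose and fell back. In LAT controls it was at 118, 147 and 174 CPM at 0 h, 1728, 1738 and 1400 CPM at 4 h and 295, 311 and 338 CPM at 20 h. The 3 times did not overlap. Its log2 fold change was 3.47 ± 0.16 at 4 h (adjusted p = 1.07e-99 by edgeR) and 1.10 ± 0.15 at 20 h (adjusted p = 1.08e-12 by edgeR), and from 4 to 20 h it fell by 2.37 on the log2 scale. In CD5/CD6 controls the 4 h libraries held 1662, 1756 and 1816 CPM and the 20 h libraries 278, 348 and 397 CPM. The 0 h libraries there held 539, 274 and 158 CPM, spread so widely that they overlapped with 20 h. The rise at 4 h was 2.43 ± 0.32 on the log2 scale (adjusted p = 1.27e-09 by edgeR), while 20 h against 0 h gave 0.08 ± 0.31 with an adjusted p of 1.0.

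The 0 h level of Cd69 in the CD5/CD6 experiment followed the replicate number and not the genotype. Libraries numbered 1 held 539, 606, 567 and 480 CPM in the WT, Cd5-/-, Cd6-/- and Cd5-/-Cd6-/- groups, those numbered 2 held 274, 253, 264 and 241 CPM, and those numbered 3 held 158, 129, 100 and 155 CPM. The 3 sets did not overlap, whereas at 4 h all 12 libraries lay between 1460 and 1917 CPM. Within replicate numbers the WT log2 difference of 20 h against 0 h was -0.96 for number 1, 0.34 for number 2 and 1.33 for number 3, and the other 3 genotypes had the same signs. Without the libraries numbered 1 the WT estimate was 0.79 (adjusted p = 6.67e-04 by edgeR) and without those numbered 3 it was -0.38 (adjusted p = 9.33e-03 by edgeR), so the direction at 20 h rests on single sets of libraries. In the LAT experiment all 3 same-numbered WT pairs were above 0, from 0.96 to 1.32.

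**Figure D1:**
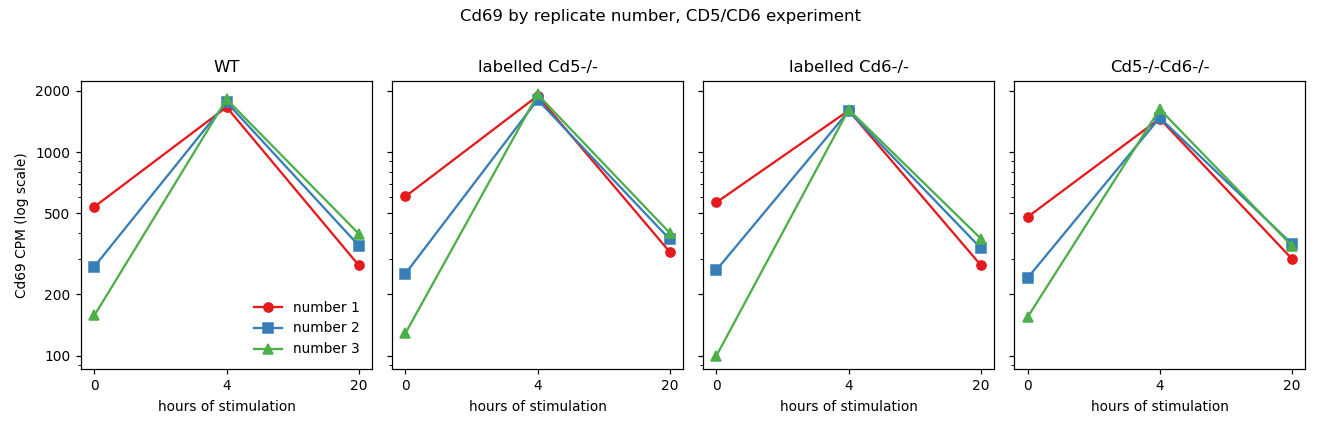
Cd69 mRNA in CPM (log axis) against hours of stimulation in the 4 genotype groups of the CD5/CD6 experiment, with 1 line for each replicate number. At 0 h the libraries numbered 1 (480 to 606 CPM), 2 (241 to 274 CPM) and 3 (100 to 158 CPM) stand apart in every genotype, and at 4 h they meet between 1460 and 1917 CPM.

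Cd44 rose later than Cd69. LAT controls held 53.5, 42.9 and 66.0 CPM at 0 h, 55.1, 64.4 and 52.1 CPM at 4 h and 138, 142 and 158 CPM at 20 h. The first pair of times overlapped and the 20 h libraries stood above both. The log2 fold change was 0.08 ± 0.15 at 4 h (adjusted p = 0.834 by edgeR) and 1.43 ± 0.16 at 20 h (adjusted p = 6.93e-19 by edgeR). In CD5/CD6 controls it was 0.63 ± 0.23 at 4 h, not past the fold threshold, and 1.42 ± 0.24 at 20 h (adjusted p = 3.82e-07 by edgeR), with 0 h libraries at 43.5 to 66.3 CPM and 20 h libraries at 123 to 163 CPM.

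The LFA-1 chains did not move together. Itgb2 in LAT controls went from 806 to 854 CPM at 0 h to 1107 to 1592 CPM at 4 h and 449 to 559 CPM at 20 h, with no overlap between times. The drop from 4 to 20 h was called in both experiments, with log2 fold changes of -1.43 ± 0.15 and, in the CD5/CD6 experiment, -1.89 ± 0.15 (adjusted p = 1.54e-20 and 4.81e-18 by edgeR). The rise at 4 h was 0.74 ± 0.15 and 0.86 ± 0.15, under a 2-fold change though with adjusted p = 2.53e-06 and 1.38e-06 by edgeR. Against 0 h, the 20 h level was lower by a log2 fold change of -1.03 ± 0.15 in the CD5/CD6 experiment, a value that passed the fold threshold narrowly and was -0.93 without the libraries numbered 3. Itgal was not called in any WT comparison, and its 4 h log2 fold change was -0.61 ± 0.15 in the LAT experiment (adjusted p = 2.02e-04 by edgeR) and -0.27 ± 0.17 in the other. The ratio of Itgal to Itgb2 in CPM per kb was 0.266 to 0.404 at 0 h, 0.128 to 0.149 at 4 h and 0.625 to 0.681 at 20 h in LAT controls, and 0.377 to 0.415, 0.166 to 0.197 and 0.681 to 0.867 in CD5/CD6 controls.

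Icam1, the ligand of LFA-1, differed between the experiments in WT cells. In the CD5/CD6 experiment it went from 24.3, 23.0 and 33.6 CPM at 0 h to 37.9, 55.7 and 68.3 CPM at 4 h, a log2 fold change of 1.00 ± 0.26 (adjusted p = 1.14e-03 by edgeR) that lay just under the 2-fold threshold. In the LAT experiment WT cells held 30.1, 34.5 and 30.2 CPM at 0 h and 20.0, 21.7 and 38.0 CPM at 4 h. These overlapped, and the log2 fold change was -0.25 ± 0.17 (adjusted p = 0.324 by edgeR). At 20 h it was 0.23 ± 0.26 and -0.34 ± 0.17, neither called. The 2 experiments were counted and fitted in separate tables and no test was made between them, so no difference between them is claimed.

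Among the α4, β1 and β7 chains, the partners of α4 moved in opposite directions in WT cells. Itgb7 in the LAT experiment was at 1240, 1498 and 1128 CPM at 0 h, 130, 149 and 237 CPM at 4 h and 217, 230 and 208 CPM at 20 h. The stimulated libraries were all far below the 0 h libraries, and the log2 fold change was -2.91 ± 0.16 at 4 h and -2.56 ± 0.15 at 20 h (adjusted p = 1.39e-74 and 5.39e-60 by edgeR). In the CD5/CD6 experiment Itgb7 fell 10.7-fold at 4 h, from 943 to 1116 CPM to 71.2 to 116 CPM. Itgb1 rose over the same hours, from 79.9, 67.7 and 81.3 CPM to 190, 210 and 159 CPM at 4 h and 207, 227 and 206 CPM at 20 h in LAT controls. Its log2 fold changes were 1.29 ± 0.15 and 1.48 ± 0.15 there, and 1.18 ± 0.15 and 1.57 ± 0.15 in the CD5/CD6 experiment, all 4 called, although the 4 h value of the CD5/CD6 experiment was 0.93 with library totals in place of the TMM scaling of libraries. The ratio of Itgb1 to Itgb7 in CPM per kb was 0.0616 to 0.0657 at 0 h, 1.18 to 2.10 at 4 h and 1.36 to 1.86 at 20 h in CD5/CD6 controls. In LAT controls it was 0.0307 to 0.0489, 0.456 to 0.997 and 0.648 to 0.674, so that Itgb1 mRNA approached but did not exceed that of Itgb7.

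Itga4, the α chain shared by both, went down with Itgb7. In LAT controls it was at 324, 136 and 323 CPM at 0 h, 57.8, 92.5 and 125 CPM at 4 h and 56.7, 54.9 and 38.9 CPM at 20 h. One 0 h library lay far under the other two, yet above all stimulated libraries. The log2 fold change was -1.51 ± 0.15 at 4 h and -2.38 ± 0.16 at 20 h (adjusted p = 7.1e-22 and 1.53e-50 by edgeR), and in the CD5/CD6 experiment Itga4 fell 4.0-fold at 4 h and 8.42-fold at 20 h. Up to 1124 bases of Itga4 exon are also exon of Cerkl on the other strand. Cerkl had 5 to 80 counts in a library, at most 3.62% of the counts of Itga4, and the use of strand in counting is not given in the sources used here. For the overlaps of Itgav and Icam1 with non-coding transcripts on the other strand, those transcripts had at most 9 counts.

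Itgav and Itgae, for the αv and αE chains, took different courses. Itgav in LAT controls rose from 30.0, 23.6 and 37.3 CPM to 134, 182 and 95.5 CPM at 4 h, a log2 fold change of 2.17 ± 0.16 (adjusted p = 1.89e-39 by edgeR), and was at 45.4 to 47.4 CPM at 20 h, above all 0 h libraries (log2 fold change 0.62 ± 0.16, under the fold threshold). In the CD5/CD6 experiment the 4 h rise was 2.46 ± 0.17 and 20 h against 4 h was -1.86 ± 0.17, both called. Itgae was rare throughout. It was at 5.06, 4.88 and 9.52 CPM at 0 h, 3.37, 3.35 and 3.24 CPM at 4 h and 0.813, 0.442 and 0.707 CPM at 20 h in LAT controls, and its log2 fold change at 20 h was -3.31 ± 0.39 there and -2.57 ± 0.32 in the CD5/CD6 experiment (adjusted p = 1.51e-16 and 8.94e-11 by edgeR). In bulk libraries fewer cells that express a gene and less of its mRNA in each cell cannot be told apart. For Itgae, marker sums are therefore given beside its fall. From 0 to 20 h the summed NK cell markers in LAT controls went from 16.2 to 38.9 CPM to 0.398 to 1.36 CPM. The summed γδ T cell markers went from 31.7 to 45.2 CPM to 6.42 to 7.48 CPM. The sum of the 4 markers of regulatory T cells did not go down with them, at 117 to 157 CPM at 0 h and 125 to 173 CPM at 20 h. Its members did not all move alike, since Foxp3 was lower at 4 h than at 0 h in these cells. In Lat-/- cells Itgae went down too. There the NK cell sum, nearly all Klrd1 at 20 h, rose from 24.8 to 30.4 CPM to 50.7 to 67.2 CPM. The γδ T cell sum fell there from 14.5 to 16.5 CPM to 8.34 to 10.8 CPM. The regulatory T cell sum fell from 35.8 to 56.8 CPM to 12.0 to 24.5 CPM. The part of these cells in the Itgae result was not tested.

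**Figure D2:**
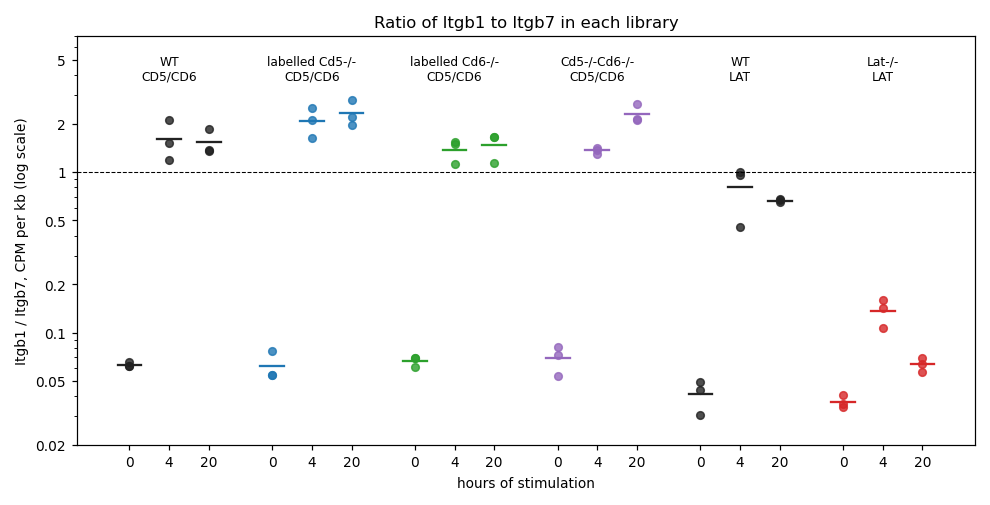
Ratio of Itgb1 to Itgb7 mRNA (CPM per kb of exon, log axis) in each library by genotype, experiment and hours of stimulation, with a bar at the mean of 3 libraries and a dashed line at equal levels. Stimulated libraries of the CD5/CD6 experiment lie between 1.11 and 2.79, stimulated LAT controls between 0.456 and 0.997, and stimulated Lat-/- libraries between 0.0569 and 0.159.

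Before stimulation, Lat-/- cells and LAT controls differed in 1 member. Itgae was at 1.83, 1.54 and 3.66 CPM in Lat-/- cells against 5.06, 4.88 and 9.52 CPM in WT cells, which did not overlap. Its log2 fold change was -1.46 ± 0.34 (adjusted p = 2.46e-03 by edgeR), and 0.961% of all genes tested were called at 0 h. The call was lost without the libraries numbered 1 (-1.48, adjusted p = 0.0773 by edgeR). Markers of regulatory T cells were lower in the same libraries, with Foxp3 at 16.3 to 24.5 CPM in Lat-/- and 50.3 to 62.4 CPM in WT cells and all 4 markers summing to 35.8 to 56.8 CPM and 117 to 157 CPM. The 5 γδ T cell markers summed to 14.5 to 16.5 CPM and 31.7 to 45.2 CPM. The part of these cells in the Itgae difference was not tested. For the other 9 members the 0 h log2 fold changes lay between -0.22 (Cd69) and 0.44 (Cd44), and none was called.

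After stimulation the genotypes were compared at 4 h and at 20 h. At 4 h 7 of 10 were called (11.7% of all genes tested, 24.1% of those whose mean reached 50 counts), of which Icam1, Itga4 and Itgb7 were higher and Cd69, Itgb2, Itgav and Itgae lower in Lat-/- cells. At 20 h 5 of 10 were called (24.4% and 44.0%): Itga4 and Itgb7 were higher, and Cd69, Cd44 and Itgb1 lower. The 20 h count lay near the share of well-counted genes and is not read as a result about the members. The response from 0 h itself differed by genotype in 6 members at 4 h (8.71% of all genes) and 6 at 20 h (19.5%). Within Lat-/- cells 5 members were called at 4 h against 0 h (6.7% of all genes), 3 at 20 h against 0 h (4.21%) and 1, Cd69, from 4 to 20 h (4.1%). By adjusted p alone the last pair of counts was 8 (10.7%) and 6 (10.1%). The counts of response differences and of calls within Lat-/- cells are set beside the share of all genes only. They are not read as a result about the members. Median log2 fold changes of Lat-/- against WT over the members were -0.79 at 4 h and 0.01 at 20 h, and 0 over all genes tested.

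**Figure D3:**
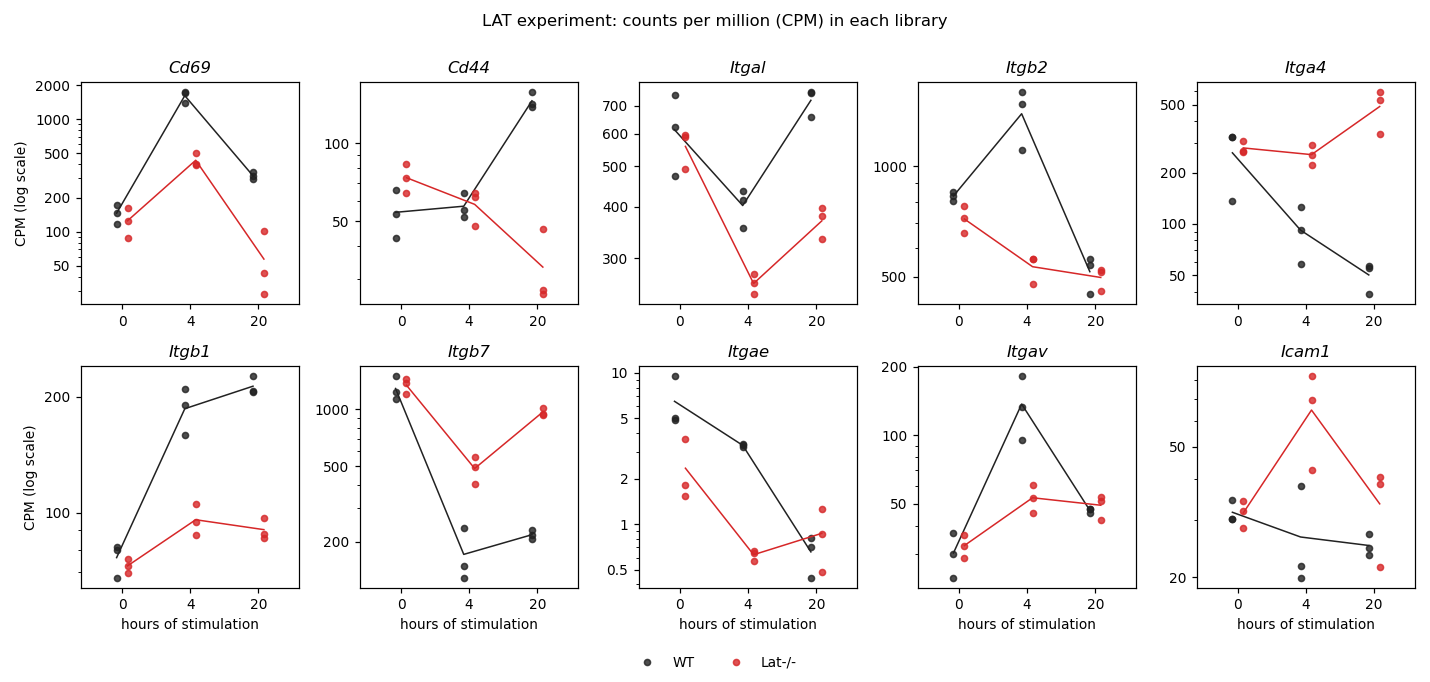
CPM (log axis, scaled per gene) of the 10 members in each library of the LAT experiment against hours of stimulation, with lines through the means of 3 libraries. Itga4 at 20 h lies at 38.9 to 56.7 CPM in WT and 338 to 591 CPM in Lat-/- cells.

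Cd69 mRNA still rose in the absence of LAT, but less, and did not stay up. Lat-/- libraries held 88.7, 124 and 163 CPM at 0 h, 497, 404 and 396 CPM at 4 h and 42.7, 28.1 and 101 CPM at 20 h. The 4 h libraries stood above the 0 h libraries and well under the 1400 to 1738 CPM of WT cells. The rise of 1.79 ± 0.15 on the log2 scale (adjusted p = 8.55e-30 by edgeR) was smaller than that of WT cells by 1.68 ± 0.21 (test of the difference of responses, adjusted p = 9.15e-14 by edgeR). At 20 h Lat-/- cells were 5.50-fold under WT cells (log2 fold change -2.46 ± 0.16, adjusted p = 1.65e-54 by edgeR). They were also below their own 0 h level by a log2 fold change of -1.13 ± 0.15, though the libraries of these times overlapped and the value was -0.81 without the libraries numbered 2.

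Cd44 mRNA did not rise in Lat-/- cells. The authors report that CD44 and CD69 went up on all T cells that received both antibodies, and give no values by genotype. The levels here are of mRNA only. It was at 64.5, 83.3 and 73.3 CPM at 0 h, 61.9, 48.1 and 64.4 CPM at 4 h and 26.2, 27.0 and 46.6 CPM at 20 h, where WT cells held 138 to 158 CPM. The 20 h log2 fold change of Lat-/- against WT was -2.13 ± 0.16 (adjusted p = 5.47e-39 by edgeR) and the difference of the 20 h responses was -2.58 ± 0.22 (adjusted p = 1.48e-29 by edgeR). At 4 h the genotypes overlapped (log2 fold change 0.02, 95% confidence interval -0.28 to 0.33). The fall from 0 to 20 h in Lat-/- cells, -1.15 ± 0.16, was -0.92 without the libraries numbered 2.

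Itgb2 had no peak in Lat-/- cells, where it was at 657 to 778 CPM at 0 h, 479 to 560 CPM at 4 h and 458 to 520 CPM at 20 h. Against WT the 4 h log2 fold change was -1.39 ± 0.15 (adjusted p = 3.75e-19 by edgeR) and the 20 h value -0.05 ± 0.15, where the genotypes overlapped. Itgal went down from 494 to 594 CPM to 247 to 275 CPM at 4 h, a log2 fold change of -1.10 ± 0.15 (adjusted p = 7.69e-12 by edgeR), and at 20 h was at 334 to 396 CPM against 659 to 755 CPM in WT cells. That 20 h difference, -0.96 ± 0.15 (adjusted p = 4.83e-10 by edgeR), lay just under the fold threshold and passed it, at -1.01, with DESeq2. The Itgal to Itgb2 ratio in CPM per kb, 0.349 to 0.383 at 0 h, was 0.205 to 0.267 at 4 h and 0.298 to 0.384 at 20 h in Lat-/- cells, and did not reach the 0.625 to 0.681 of WT cells at 20 h.

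At 4 h Icam1 was the member that rose without LAT and not in WT cells of the same experiment. Lat-/- libraries held 28.3, 31.9 and 34.2 CPM at 0 h, 69.6, 42.6 and 82.3 CPM at 4 h and 38.6, 21.5 and 40.5 CPM at 20 h. All 4 h libraries stood above the 0 h libraries and above the 20.0 to 38.0 CPM of WT cells at 4 h. The 4 h log2 fold change against WT was 1.29 ± 0.17 (adjusted p = 4.99e-13 by edgeR), and the 4 h responses differed by 1.29 ± 0.24 (adjusted p = 1.18e-06 by edgeR). The rise within Lat-/- cells was 1.04 ± 0.17 (adjusted p = 1.47e-08 by edgeR) and fell under the fold threshold without the libraries numbered 1 (0.92) or 3 (0.90). At 20 h the genotypes overlapped.

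This opposite course of the α4 partners was weaker in Lat-/- cells. Itgb7 was at 1381, 1439 and 1203 CPM at 0 h, 406, 559 and 498 CPM at 4 h and 936, 949 and 1022 CPM at 20 h. It fell at 4 h (log2 fold change -1.46 ± 0.15, adjusted p = 1e-20 by edgeR). By 20 h it was higher again but below all 0 h libraries (-0.47 ± 0.15, not called), while WT cells stayed low. All 3 same-numbered pairs of Itgb7 were below 0 at 20 h against 0 h (-0.6 to -0.234). Against WT it was higher by a log2 fold change of 1.51 ± 0.15 at 4 h and 2.15 ± 0.15 at 20 h (adjusted p = 3.12e-22 and 6.74e-44 by edgeR). Itga4 was at 268, 264 and 305 CPM at 0 h, 254, 221 and 290 CPM at 4 h and 534, 591 and 338 CPM at 20 h. The 0 h and 4 h libraries overlapped, and the 4 h log2 fold change of -0.13 ± 0.15 was not called, with all 3 same-numbered pairs below 0 (-0.26 to -0.07). The 20 h libraries lay above all 0 h libraries (0.81 ± 0.15, under the fold threshold) and were 9.72-fold above WT (adjusted p = 5.93e-89 by edgeR), which made Itga4 the member with the largest genotype difference of the LAT experiment. The 4 h responses of Itga4 differed by 1.38 ± 0.21 (adjusted p = 2.92e-09 by edgeR) and by 0.97 without the libraries numbered 1. Itgb1 was at 69.7 to 75.8 CPM at 0 h, 87.6 to 105 CPM at 4 h and 85.7 to 97.04 CPM at 20 h. Its stimulated libraries lay above the 0 h libraries, and neither time was called against 0 h. All 3 same-numbered pairs were above 0 at 4 h (0.21 to 0.54) and at 20 h (0.24 to 0.36). The 20 h level of Itgb1 was below WT by a log2 fold change of -1.24 ± 0.15 (adjusted p = 2.85e-15 by edgeR). The ratio of Itgb1 to Itgb7 in CPM per kb in Lat-/- cells was 0.0343 to 0.0409 at 0 h, 0.106 to 0.159 at 4 h and 0.0569 to 0.0694 at 20 h.

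Itgav rose less at 4 h without LAT, from 28.9, 32.6 and 36.6 CPM to 52.8, 45.7 and 60.7 CPM, and remained at 42.5 to 53.7 CPM at 20 h. Against WT the 4 h log2 fold change was -1.37 ± 0.16 (adjusted p = 1.22e-16 by edgeR), or -0.98 without the libraries numbered 2, and the 20 h value was 0.07 ± 0.16. Itgae in Lat-/- cells was at 0.662, 0.646 and 0.572 CPM at 4 h and 0.860, 0.482 and 1.26 CPM at 20 h, levels that WT cells reached only at 20 h. The 4 h log2 fold change against WT was -2.39 ± 0.40 (adjusted p = 2.37e-08 by edgeR), the difference of the 4 h responses was -0.93 ± 0.52 and not called, and the difference of the 20 h responses was 1.87 ± 0.54 (adjusted p = 2.86e-03 by edgeR). Foxp3 was at 4.23 to 12.1 CPM in Lat-/- and 30.7 to 40.9 CPM in WT cells at 4 h, and its part in the Itgae values was not tested.

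Loss of CD5, of CD6 or of both changed none of the 10 members by the thresholds used. Over 9 comparisons with WT at the same time and 6 differences of responses, 0 of 150 tests were called by edgeR's quasi-likelihood test, 8 had an unadjusted p under 0.05, and the lowest adjusted p was 0.565. DESeq2 called 0 as well (lowest adjusted p 0.601), and edgeR with the replicate number as a block called 0 (lowest adjusted p 0.108). Without the 0 h libraries that went against their labels, 0 of the 150 tests had an adjusted p under 0.05 by edgeR (lowest 0.315). The shares and interval counts that follow use all libraries. Few genes were called at all: 0.0619%, 0.0743% and 0.0186% at 0, 4 and 20 h in Cd5-/- cells, 0%, 0.0031% and 0.0186% in Cd6-/- cells, 0.0248%, 0.0434% and 0.0434% in Cd5-/-Cd6-/- cells, and 0% to 0.0031% in the 6 differences of responses. For 82 of the 90 comparisons with WT the 95% confidence interval lay within a 2-fold change in either direction, and the other 8 were of Itgae, Itga4 and Icam1. For the 60 differences of responses this held for 47, and the other 13 were of Cd44, Icam1, Itga4 and Itgae. At 0 h the libraries labelled Cd5-/- and Cd6-/- differed from WT by log2 fold changes of -0.22 to 0.21, and by -0.39 to 0.30 without the pair of libraries numbered 2 that went against their labels.

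**Figure D4:**
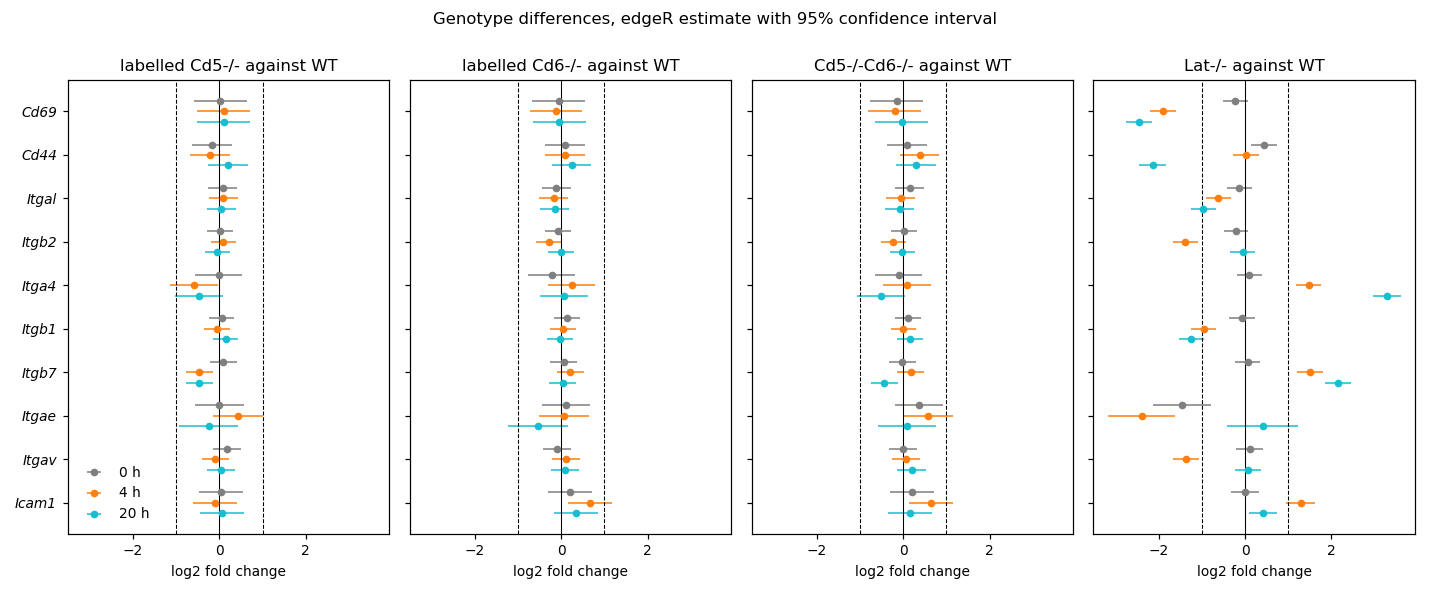
Log2 fold change of each knockout against WT of the same experiment for the 10 members at 0, 4 and 20 h, with edgeR estimates as points, 95% confidence intervals as bars and dashed lines at a 2-fold change. All points of the Cd5-/-, Cd6-/- and Cd5-/-Cd6-/- panels lie between the dashed lines, and Itga4 at 20 h lies at 3.28 in the Lat-/- panel.

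The members with the lowest unadjusted p were Itgb7 and Icam1. Itgb7 at 4 h was at 55.5, 62.1 and 87.4 CPM in Cd5-/- cells and 71.2, 95.1 and 116 CPM in WT cells, which overlapped, and the log2 fold change was -0.46 ± 0.16 (adjusted p = 0.565 by edgeR). At 20 h it was at 89.6, 84.0 and 98.4 CPM in Cd5-/- cells, 94.8, 87.0 and 94.5 CPM in Cd5-/-Cd6-/- cells and 135, 113 and 126 CPM in WT cells, so that WT lay above both. The log2 fold changes, -0.46 ± 0.16 and -0.44 ± 0.16, had adjusted p = 1.0 by edgeR, and all 3 same-numbered pairs were below 0 in each. Cd6-/- cells at 20 h held 114 to 151 CPM. Itga4 at 4 h was at 64.4, 71.4 and 56.4 CPM in Cd5-/- cells and 74.8, 124 and 91.4 CPM in WT cells, which did not overlap, with a log2 fold change of -0.59 ± 0.28 (adjusted p = 1.0 by edgeR). All 3 same-numbered pairs of Itga4 were below 0 there (-0.79 to -0.22) and at 20 h in Cd5-/- (-0.50 to -0.41) and Cd5-/-Cd6-/- cells (-0.76 to -0.45). With the replicate block the adjusted p by edgeR for these 3 was 0.29, 1.0 and 0.955. Icam1 at 4 h was at 43.3, 110.5 and 102 CPM in Cd6-/- cells, 48.3, 131 and 72.8 CPM in Cd5-/-Cd6-/- cells and 37.9, 55.7 and 68.3 CPM in WT cells, with log2 fold changes of 0.66 ± 0.25 and 0.64 ± 0.25 (adjusted p = 1.0 by edgeR). All 3 same-numbered pairs were above 0 in each, from 0.19 to 0.99 and from 0.09 to 1.23. Without the libraries numbered 3, 6 of the 150 tests had an adjusted p under 0.05, none past the fold threshold, the lowest being Icam1 in Cd5-/-Cd6-/- cells at 4 h (0.94, adjusted p = 1.59e-07 by edgeR).

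**Figure D5:**
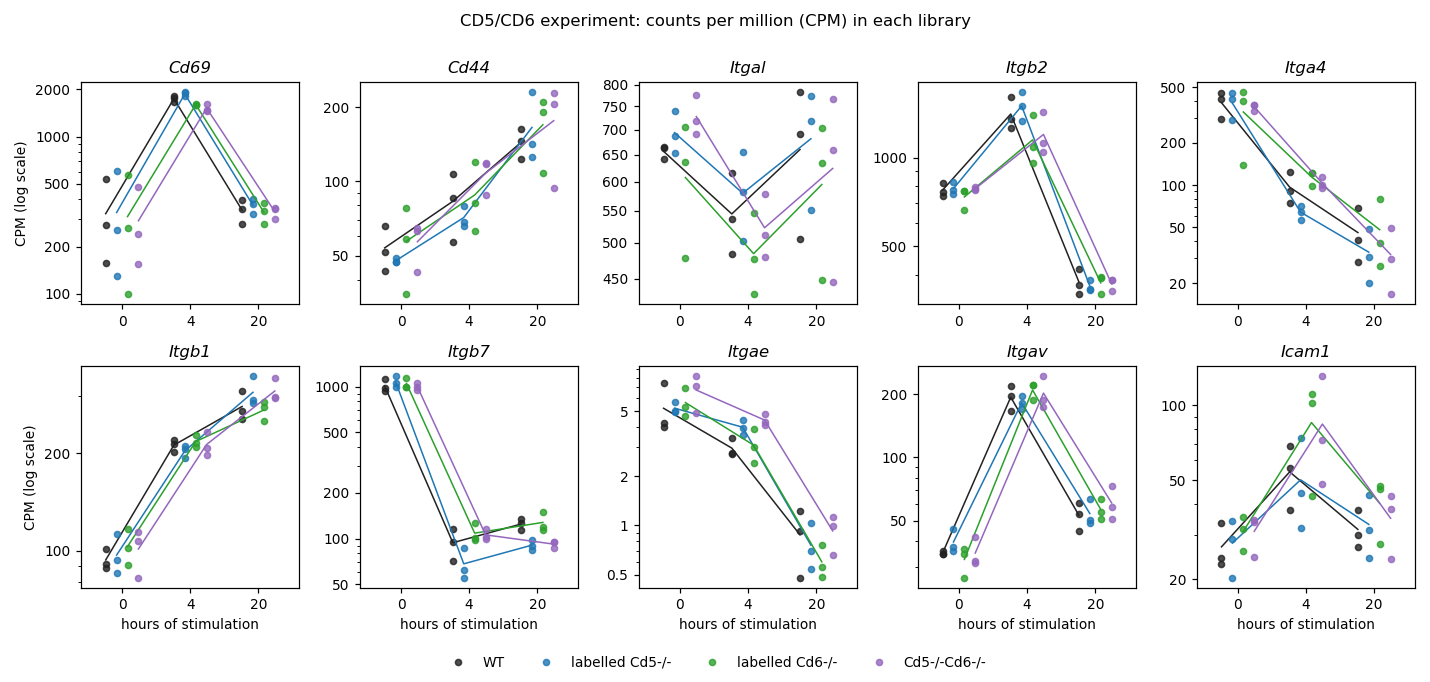
CPM (log axis, scaled per gene) of the 10 members in each library of the CD5/CD6 experiment against hours of stimulation, with lines through the means of 3 libraries. Itgb7 goes from 943 to 1173 CPM at 0 h to 55.5 to 127 CPM at 4 h over all genotypes.

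Within each of these knockouts the course of the members was called much as in WT cells. At 4 h 5, 6 and 6 of 10 members were called in Cd5-/-, Cd6-/- and Cd5-/-Cd6-/- cells (19.5%, 18% and 17.2% of all genes), at 20 h against 0 h 6, 5 and 6 (30%, 28.2% and 30.3%), and at 20 h against 4 h 5, 6 and 6 (21.3%, 20.8% and 21.4%). By adjusted p alone 8 passed from 4 to 20 h in Cd5-/- cells (30.8%). At 4 h against 0 h Cd69, Itgav and Itgb1 were called higher and Itga4 and Itgb7 lower in all 4 genotypes, with Cd69 at log2 fold changes of 2.37 to 2.51 and Itgb7 at -3.98 to -3.24. Icam1 was called in Cd6-/- (1.45) and Cd5-/-Cd6-/- cells (1.43), and the differences of these responses from that of WT cells were not called. At 20 h Cd44 and Itgb1 were called higher, and Itga4, Itgb7 and Itgae lower, in all 4. The pair of 0 h libraries numbered 2 changed 1 of these calls: without them Icam1 in cells labelled Cd5-/- passed the fold threshold at 4 h (1.03 in place of 0.85).

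Genes that act on integrins were described from named lists. Of all genes tested, 8.24% were called higher and 11.1% lower at 4 h in CD5/CD6 controls and 8.05% and 9.29% in LAT controls, and at 20 h against 0 h 12.3% and 17.3% and 10.8% and 12.7%. Lat-/- cells had 5.51% higher and 6.23% lower than WT at 4 h and 12.1% and 12.3% at 20 h, and 3.62% and 2.07% lower than their own 0 h level at 4 and 20 h. Among genes whose mean reached 50 counts these shares were larger, 18.2% and 20.7% at 4 h in CD5/CD6 controls and 21.8% and 22.3% for Lat-/- against WT at 20 h. The counts below are given beside these shares, and nothing particular to a list is read from them. Of 20 genes of inside-out activation, the steps by which TCR signals switch integrins to high affinity, 0 rose and 11 fell at 4 h in CD5/CD6 controls, and 0 rose and 9 fell in LAT controls, with medians of -1.31 and -1.06 on the log2 scale. Rasgrp2, which activates Rap1, fell with log2 fold changes of -3.42 and -2.42, and Fyb, which encodes the adaptor ADAP, with -2.11 and -1.27. At 20 h 12 and 10 of the 20 fell. In Lat-/- cells 2 fell at 4 h and 2 at 20 h, and at 20 h 8 were higher and 1 was lower than in WT cells, Rasgrp2 by a log2 fold change of 2.67, Fyb by 2.13 and Skap1, which encodes the partner of ADAP, by 1.83. Of 16 genes that link integrins to actin, 4 and 1 fell at 4 h and none rose, and at 20 h Actn1 was higher (2.04) and Vcl, vinculin, lower (-1.79) in Lat-/- than in WT cells.

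Of 19 integrin subunits other than the members, 2 rose and 9 fell at 4 h in CD5/CD6 controls and 2 rose and 6 fell in LAT controls. Itga3 rose in both (2.25 and 1.49 on the log2 scale) and Itgb3 fell in both (-2.86 and -3.61). Itgad (-3.02) and Itgax (-2.01), chains of myeloid integrins, were called lower in the CD5/CD6 experiment, whose 0 h WT libraries held myeloid markers summing to 208 to 457 CPM against 75.2 to 96.6 CPM at 4 h. The part of those cells in these falls was not tested. At 20 h Lat-/- cells had 8 of the 19 higher and 3 lower than WT cells, with Itga7 at a log2 fold change of 5.29, Itga2, which NK cells also carry, at 4.53 and Itga6 at 2.71. At that time the 5 NK cell markers summed to 50.7 to 67.2 CPM in Lat-/- and 0.398 to 1.36 CPM in WT cells, nearly all of it Klrd1, with Ncr1 at 0 in all 3 Lat-/- libraries. The 8 B cell markers summed to 851 to 1136 CPM and 292 to 336 CPM, nearly all of it Ighm, with Cd79a at no more than 1.09 CPM in any LAT library. The part of these cells in the subunit values was not tested.

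Other adhesion receptors moved both ways: 9 of 29 measured rose and 10 fell at 4 h in CD5/CD6 controls, and 8 rose and 8 fell in LAT controls. Alcam, the ligand of CD6, rose by log2 fold changes of 4.91 and 5.63, Slamf1 by 4.91 and 4.62 and Crtam by 3.37 and 2.96, while Cd226 fell (-2.95 and -2.69). At 4 h Lat-/- cells were below WT in 7, among them Crtam (-3.69), Slamf1 (-3.03) and Alcam (-2.50), and above WT in 4, among them Selplg (1.42), which encodes the selectin ligand PSGL-1. Among partners of CD44 and CD69, S1pr1, the receptor that CD69 removes from the surface, fell in CD5/CD6 controls with log2 fold changes of -1.85 at 4 h and -5.41 at 20 h, and in LAT controls with -3.73 at 20 h. Klf2, a factor that activates S1pr1, fell at 20 h (-5.18 and -3.78). Both were higher in Lat-/- than in WT cells at 20 h, at log2 fold changes of 5.33 and 4.51. In Lat-/- cells at 20 h low Cd69 and Cd44 thus stood beside high S1pr1, Klf2, Itga4 and Itgb7. In the 15 comparisons of Cd5-/-, Cd6-/- and Cd5-/-Cd6-/- cells with WT, 0 genes of the 5 lists were called.

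The genes whose levels followed each member most closely over the 36 libraries of the CD5/CD6 experiment were named by Pearson's r of log2 CPM. These values are descriptions: the libraries fall into clusters by time, and they share time points and replicate numbers. Itgb7 was closest to AB124611 and Acp5 (r = 0.995 each, and 0.977 and 0.979 over the 18 LAT libraries) and Fam78a. Itga4 was closest to Zfp831 (r = 0.987, and 0.980 in the LAT libraries), Ssh2 and Smarca2, and Cd69 to Trib1 (0.976 and 0.920), Zbtb43 and Maff. Itgav was closest to Surf6, Arl5b and Cd274 (0.985 each, and 0.876, 0.933 and 0.909), and Itgb1 to Yars, Smyd2 and Fam185a. Itgb2 was closest to Susd6, Rhof and Retreg1, Itgal to St3gal2, Pik3r4 and Tsc2, Itgae to H2-Ob, Hsd11b1 and Tcn2, Icam1 to Irgm2 (0.929 and 0.733), Tgtp1 and Rnf19b, and Cd44 to Serpinb9 (0.940), Clic4 and Plscr1. Over the LAT libraries r was lower for many of these genes, among them Serpinb9 (0.077) and Clic4 (0.177) for Cd44, Rnf19b (0.111) for Icam1, Tcn2 (0.225) and H2-Ob (0.315) for Itgae, Pik3r4 (0.405) and St3gal2 (0.492) for Itgal, and Susd6 (0.449) and Retreg1 (0.494) for Itgb2.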

How the data were processed

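Poly(A) RNA of naive CD4+ T cells was sequenced in 36 libraries of the CD5/CD6 experiment and 18 of the LAT experiment, with 3 per genotype and time. Single reads of 50 bases were trimmed with DimerRemover, mapped to GRCm38 with STAR and counted per gene with featureCounts 1.6.0 by the authors, who deposited raw counts, neither normalized nor pooled. The annotation release, the handling of multi-mapping reads and the use of strand in counting are not given in the sources used here. Every column was assigned to a sample, with 0 per-sample columns unused. Genes were named through GENCODE vM21 (55144 of 55385 identifiers matched).

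Counts were fitted in R 4.3.3 with edgeR 4.0.16 (quasi-likelihood test, TMM factors, a mean for each group, 1 shared spread per experiment, genes with at least 1 read, Benjamini-Hochberg adjustment over all genes tested). The SE is the log2 fold change divided by the root of F. CPM used TMM-scaled totals, and log2 CPM a prior count of 2. Genes were called when they changed more than 2-fold with adjusted p below 0.05. Alternatives were DESeq2 1.42.0, RLE factors, library totals, filterByExpr, the compared groups alone, adjusted p alone, the replicate block, each replicate number left out, and fits without both 0 h libraries numbered 2 labelled Cd5-/- and Cd6-/-. The fit was tested on simulated data first. The members, gene lists and comparisons were chosen with earlier results of these data known. Named genes were the 10 members, Cd5, Cd6 and Lat, up to 4 called genes per list and direction with the largest change among those whose mean reached 50 counts, and the 3 genes (mean of at least 10 CPM) most correlated with each member.

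Same-numbered libraries of the CD5/CD6 experiment deviated together (mean r = 0.324, against -0.158 for different numbers), with every pair above 0.1 in each of the 9 comparisons of a knockout with WT and in 11 of the 12 comparisons of times (not Cd6-/- at 4 h against 0 h, lowest 0.0373). In the LAT experiment the mean r over all groups was 0.0927. For Lat-/- against WT it was 0.361 at 0 h, with every pair above 0.1, and 0.213 and 0.194 at 4 and 20 h, with lowest pairs of 0.0223 and 0.0726. The labels do not say what a number shares.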

Additional observations from a re-analysis of the deposited data

Results flagged for a closer look

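Responses to stimulation that differed between Lat-/- and WT cells by the test of the difference itself (edgeR's quasi-likelihood test, Benjamini-Hochberg adjusted, fold change above 2) were set apart for a closer look. At 4 h the response of Lat-/- cells was smaller or more negative for Cd69 (-1.68 on the log2 scale), Itgb2 (-1.18) and Itgav (-1.48), and larger or less negative for Itga4 (1.38), Itgb7 (1.45) and Icam1 (1.29). At 20 h it was below that of WT cells for Cd69 (-2.24), Cd44 (-2.58) and Itgb1 (-1.17) and above it for Itga4 (3.19), Itgb7 (2.09) and Itgae (1.87). The adjusted p-values by edgeR were between 1.98e-47 (Itga4 at 20 h) and 2.86e-03 (Itgae at 20 h). Itgae at 20 h rests on levels of 0.442 to 1.26 CPM and on a 0 h level that already differed. Groups of 3 libraries were not tested for outlying libraries.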

How the results depend on the processing

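Over 4070 values of single members recomputed under the alternatives, 0 called values changed sign, 3805 kept their direction and side of the threshold, 26 lost a call, 88 gained one, and 151 that were not called changed sign. These totals include adjusted p alone, which uses the main estimates and so could neither change a sign nor lose a call. Of the gained calls it gave 46 in comparisons of times, 4 in comparisons of genotypes and 2 in differences of responses. With adjusted p alone the number of members called was 9 in place of 5 at 4 h and 9 in place of 5 from 4 to 20 h in CD5/CD6 controls, 8 in place of 5 from 4 to 20 h in Cd5-/- cells, 8 in place of 5 at 4 h in LAT controls, and 8 in place of 3 at 20 h and 6 in place of 1 from 4 to 20 h in Lat-/- cells. With library totals the last count was 2. With filterByExpr 0 members in place of 1 differed between Lat-/- and WT cells at 0 h (Itgae, adjusted p = 0.0573 by edgeR). Leaving out each replicate number in turn gave 0 to 1 members there (0 without number 1), 1 to 3 at 20 h against 0 h in Lat-/- cells (1 without number 2) and 2 to 3 from 4 to 20 h. The response differences between Lat-/- and WT cells lost their call for Itgav at 4 h without number 2 (-0.94), Itga4 at 4 h without number 1 (0.97) and Itgae at 20 h without number 3 (adjusted p = 0.053 by edgeR). The fall of Itga4 from 4 to 20 h in CD5/CD6 controls was -0.79 without number 2 and -0.86 without number 3. The causes were not tested. The replicate block, like DESeq2, left all 38 counts of called members within 1.5 times. It gained a call for Itga4 from 4 to 20 h in Cd5-/- cells (-1.03) and called 0 of the 150 tests of CD5 and CD6 genotypes. Depth limits Itgae, with 11 to 306 counts a library.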
